A study of Mus musculus with 2 samples.

Results

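Early round spermatids were taken from single-cell RNA profiles of mouse testis and were chosen by their measured counts of marker genes. A barcode (a droplet's tag, read as a cell) was a member when it had 8000 or more UMIs, at most 10% mitochondrial UMIs, 3 or more UMIs of Acrv1, and more Acrv1 than Ccna1 and than Piwil1 UMIs. Its share of UMIs from the late spermatid genes Smcp, Tppp2, Lelp1 and Spem2 also had to lie below 0.25 times their pooled share of 0.402%. A UMI (unique molecular identifier) stands for 1 captured transcript. The rule found 797 members among 38009 barcodes: 357 of 20601 in the Dot1L cKO library and 440 of 17408 in the control library.

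Each library came from whole dissociated testis. The cKO (conditional knockout) genotype was Dot1L fl/delta, carrying the Ddx4-Cre transgene. The control genotype was Dot1L fl/+, Cre-negative, so control cells kept a wild-type allele beside the floxed one and no delta allele. Ddx4 is a germ cell gene, and Cre driven by it acts in germ cells, so the somatic testis cells of the cKO were not its target. The labels give neither the age nor the number of animals behind a library, nor the exons that the delta allele lacks.

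DOT1L places methyl groups on lysine 79 of histone H3, a mark found along the bodies of transcribed genes. Round spermatids are the haploid cells left by the meiotic divisions. They build the acrosome, a secretory cap over the nucleus, and start a flagellum, and they store messages for later translation. As they elongate, histones give way to transition proteins and then to protamines, which compact the sperm genome. Acrv1 encodes an acrosomal protein whose gene is switched on in round spermatids, Ccna1 is a cyclin of late spermatocytes, and Piwil1 binds the small RNAs of pachytene spermatocytes.

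The upstream sequences of 3 round spermatid genes are given. They are the gene that defines the members (Acrv1), the marker that differed most (Zpbp) and the 1 marker whose sequence held TGACGTCA (Izumo1). Acrv1 is the gene of the rule, Izumo1 encodes the sperm protein that binds the egg, and Zpbp encodes an acrosomal zona pellucida binding protein. Each sequence is the 250 bases before the gene's start in RefSeq, build GRCm38.p6, written 5′ to 3′ on the gene's strand.
Acrv1, chr9:36692970-36693219, plus strand: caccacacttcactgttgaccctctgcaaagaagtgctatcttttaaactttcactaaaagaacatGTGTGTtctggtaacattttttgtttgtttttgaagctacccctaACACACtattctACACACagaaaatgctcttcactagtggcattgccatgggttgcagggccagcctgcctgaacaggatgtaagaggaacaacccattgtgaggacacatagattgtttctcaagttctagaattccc
Izumo1, chr7:45621561-45621810, plus strand: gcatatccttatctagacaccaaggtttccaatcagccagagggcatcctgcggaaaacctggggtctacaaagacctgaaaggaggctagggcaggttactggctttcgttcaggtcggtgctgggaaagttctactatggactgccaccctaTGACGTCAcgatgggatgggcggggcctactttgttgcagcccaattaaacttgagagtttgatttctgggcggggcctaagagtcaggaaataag
Zpbp, chr11:11462420-11462669, minus strand: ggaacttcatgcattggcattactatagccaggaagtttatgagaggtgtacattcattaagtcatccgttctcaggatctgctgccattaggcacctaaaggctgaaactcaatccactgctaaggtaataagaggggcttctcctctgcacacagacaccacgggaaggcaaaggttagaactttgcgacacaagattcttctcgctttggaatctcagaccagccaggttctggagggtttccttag
Capitals mark GTGTGT on either strand (ACACAC on the strand shown) and TGACGTCA, which reads the same on both. GTGTGT is a motif bound by TDP-43, a factor studied at the mouse Acrv1 promoter, and TGACGTCA is the full cAMP response element, which CREM, an activator of spermatid genes, can bind. The first occurs in 14.9% and the second in 1.55% of the 32851 RefSeq promoter windows of this length. The 12 round spermatid markers were Acrv1, Spaca1, Spaca7, Izumo1, Tsga8, Catsper3, Catsper4, Sun5, Spata16, Acr, Zpbp and Tssk1. Of these 12, 11 had a window, and 3 of the 11 held GTGTGT and 1 held TGACGTCA. The Zpbp window holds neither set of letters.

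As a sum, the round spermatid markers rose from spermatocytes to members and on to later round spermatids. The 11 genes of the round spermatid marker list other than Acrv1, the gene of the rule, were all detected in both libraries. As UMIs of the gene scaled to 1000000 UMIs of all genes (CPM), they summed to 3090.3 CPM in cKO members and 2810.1 CPM in control members. Their sum was lower in diplotene to secondary spermatocytes, at 1662 CPM in the cKO and 1321 CPM in the control library. It was higher in later round spermatids, at 4990 CPM in the cKO and 5062 CPM in the control library. Those later cells met the same rule at 0.25 to 1 times the pooled late share. In pachytene spermatocytes the sum was 1216 CPM in the cKO and 1118 CPM in the control library. Not every marker followed the sum. Spata16 fell from 530 CPM in cKO and 623 CPM in control diplotene to secondary spermatocytes to 294 CPM in cKO and 387 CPM in control members. In the control library Zpbp had 148 CPM in diplotene to secondary spermatocytes, 165 CPM in members and 155 CPM in later cells. Late spermatocyte markers had not yet gone: without Ccna1 and Piwil1 of the rule they summed to 2855 CPM in cKO members and 3057 CPM in control members, against 1859 CPM in later cKO and 1952 CPM in later control cells. The genes with the highest levels were led by Meig1, needed for shaping the spermatid's manchette, at 8059 CPM in the cKO and 9310 CPM in the control library. Ldhc, the testis form of lactate dehydrogenase, followed at 7860 CPM in cKO and 8320 CPM in control members. Both were about as high in diplotene to secondary spermatocytes. There Ldhc had 8829 CPM in the cKO and 9207 CPM in the control library. Meig1 had 8289 CPM in the cKO and 9300.5 CPM in the control library. Not all abundant genes were as high in spermatocytes. Gm5617 had 3175 CPM in cKO and 3830 CPM in control members, but 1449 CPM in cKO and 1684 CPM in control pachytene spermatocytes.

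A member held a median of 18209 UMIs in the cKO library (8019 to 98771) and 20078.5 in the control library (8901 to 137270). Acrv1 counted a median of 7 UMIs in the members of either library. The late share of the median member was 0.152 times the pooled share in the cKO and 0.149 times in the control library. Just inside that threshold, between 0.20 and 0.25, lay 97 cKO and 109 control members, and just outside it, up to 0.30, lay 115 cKO and 132 control barcodes. At the Acrv1 minimum of 3 UMIs stood 24 cKO and 33 control members, while 12 cKO and 17 control barcodes with 2 UMIs met every other condition. The libraries held 156518838 UMIs in the cKO and 155487418 in the control, and shared 102 barcode sequences, none of them a member in both.

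The cKO library held slightly fewer early round spermatids per deep barcode. Members were 7.12% (6.43 to 7.87) of cKO and 8.08% (7.37 to 8.83) of control barcodes with 8000 or more UMIs and at most 10% mitochondrial UMIs. These and all later intervals, unless stated otherwise, are exact 95% intervals that cover counting error only, and the 2 intervals overlap. Over all barcodes the members were 1.73% in the cKO and 2.53% in the control library. Among barcodes that met the rule without its late gene limit, they were 22.8% in the cKO and 21.9% in the control library.

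Cells of 1 library are not replicates, so each difference below is between 2 libraries, has no replicate check and was not tested. Members' UMIs were summed per library, scaled to CPM and set against each other as a log2 ratio, cKO over control, with an exact interval. Genes with at least 100 UMIs in the members of the libraries together were measured, and 2-fold was the rule of size. Thinned to 8000 UMIs, a cKO member showed a median of 3244 genes (3230 to 3259) and a control member 3087 (3072 to 3106). These 2 intervals are rank-based over the members of each library. They cover the spread between cells of 1 library and not that between animals or libraries.

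Dot1l, the targeted gene (chr10:80755206-80795461, mm10), was far lower in cKO early round spermatids. It had 93 UMIs, or 12.2 CPM, in cKO members and 987 UMIs, or 90.9 CPM, in control members, a log2 ratio of −2.90 (−3.22 to −2.59). At 8000 UMIs per cell, 9.24% of cKO members and 50.2% of control members had a Dot1l UMI. The difference was small in pachytene spermatocytes, at 58.4 CPM in the cKO and 85.7 CPM in the control library. It was wider in diplotene to secondary spermatocytes, at 30.4 CPM in the cKO and 124 CPM in the control library. In later round spermatids the level was 5.52 CPM in the cKO and 45.6 CPM in the control library, a log2 ratio of −3.05. Somatic barcodes, which held macrophage, Leydig or mesenchymal markers, had 17.4 CPM in the cKO and 22.2 CPM in the control library. Whether the 3′ reads lie in the deleted stretch of Dot1l was not tested.

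Across all genes the cKO members had more 2-fold differences upward than downward. Of 10039 measured genes, 564 (5.62%) were 2-fold or more higher and 171 (1.7%) were 2-fold or more lower in the cKO library, 7.32% in either direction. The median log2 ratio of all measured genes was 0.05, and median-of-ratios scaling lowers every ratio by that amount. Without the 7 cKO and 2 control members that held 20 or more UMIs of somatic markers, 518 genes were higher and 173 lower. After the level of free RNA was subtracted, 796 genes were higher and 542 lower. That level was taken from 410 cKO and 103 control somatic barcodes and includes the transcripts of those cells themselves. Rps4x, for example, had 7.59 UMIs per cKO somatic barcode and 0.367 per cKO member. For genes that somatic cells express, the subtraction can thus take away more than free RNA.

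**Figure D1:**
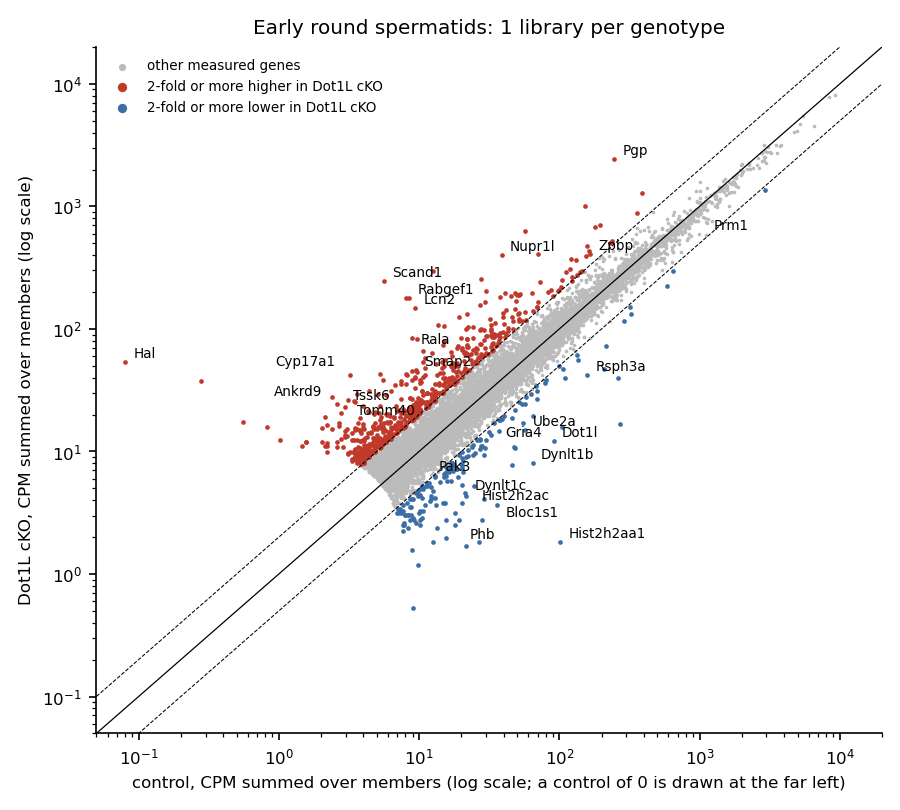
Summed CPM of each measured gene in early round spermatids of the Dot1L cKO library (vertical axis) and the control library (horizontal axis), both on log scales, with the line of equal level and dashed lines at 2-fold. The 564 genes higher in the cKO library are red and the 171 lower are blue; Hal, with no UMI in control members, is drawn at the far left.

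Of 11 genes described among the highest ratios, 9 were spread over many members and 2 came from a handful of barcodes. Scand1, which encodes a SCAN domain protein, had 245 CPM in cKO members and 5.62 CPM in control members, a log2 ratio of 5.45 (5.08 to 5.84). At 8000 UMIs, 84.9% of cKO and 4.77% of control members had a Scand1 UMI, so most cKO members and few control members held it. In somatic barcodes, at median depths of 2921.5 UMIs in the cKO and 2420 in the control library, the shares with a Scand1 UMI were 58.3% in the cKO and 1.94% in the control. Hal, the histidine ammonia-lyase gene, had 408 UMIs in cKO members and 0 in control members. With control members set to a floor of 3 UMIs over the whole group, the log2 ratio of Hal was 7.59. By its exact interval the ratio was at least 7.29. Pgp, a phosphoglycolate phosphatase, was the most abundant of these, at 2444 CPM in cKO members and 246 CPM in control members.

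Rabgef1, an activator of the endosomal GTPase Rab5, had 177 CPM in cKO and 8.48 CPM in control members. Nupr1l had 398 CPM in cKO and 38.8 CPM in control members. The small GTPase gene Rala had 84.9 CPM in cKO and 8.94 CPM in control members, and the mitochondrial import channel gene Tomm40 had 26.2 CPM in cKO and 3.13 CPM in control members. Ankrd9 stood at 24.4 CPM in cKO and 2.58 CPM in control members. These 5 genes were higher in cKO cells of every germ cell stage examined, and in somatic barcodes too, where Ankrd9 had 77 UMIs in the cKO and 1 in the control library.

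That spread over cell types was common to most of the highest genes. The labels used here give no strain, and with 1 library per genotype the genotype cannot be told apart from anything else that differs between the libraries. The log2 ratio of Scand1 was 5.48 in diplotene to secondary spermatocytes, 5.52 in later round spermatids, and somatic barcodes had 607 UMIs in the cKO and 2 in the control library, a log2 ratio between 4.14 and 9.05 by its exact interval. That of Pgp lay between 3.22 and 3.36 in all 5 sets of cells. Free RNA can carry germ cell transcripts into somatic droplets: a somatic barcode held 3.88 Pgp UMIs in the cKO and 0.350 in the control library, against 52.3 UMIs per cKO member and 6.08 per control member. Its part in the somatic ratios was not tested. Tssk6, a kinase needed for sperm DNA condensation, had 23.2 CPM in cKO and 2.95 CPM in control members. In the cKO library Tssk6 averaged 0.496 UMIs per member and 1.40 per somatic barcode, so its count in cKO members did not exceed that of somatic barcodes. With the level of free RNA subtracted the log2 ratio of Tssk6 was −0.49, against 2.98 without.

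Lcn2, a lipocalin, and Cyp17a1, an enzyme of androgen synthesis in Leydig cells, had ratios of 3.98 and 3.72, and 5 cKO members held 98.2% of the Lcn2 UMIs and 98.8% of the Cyp17a1 UMIs. These were barcodes with somatic transcripts. Without the members that held 20 or more somatic marker UMIs, Lcn2 had 21 UMIs in cKO and 3 in control members, and Cyp17a1 had 5 UMIs in cKO and 0 in control members. The 9 Leydig markers summed to 212 CPM in cKO and 54.4 CPM in control members, and to 25.7 CPM in cKO and 25.9 CPM in control members without those barcodes. The 12 Sertoli markers summed to 120 CPM in cKO and 58.0 CPM in control members, and still to 93.0 CPM in cKO and 54.6 CPM in control members without them. The 10 mesenchymal markers summed to 46.4 CPM in cKO and 11.6 CPM in control members, and to 23.9 CPM in cKO and 11.6 CPM in control members without them. Their part in the differences between the libraries was not tested. The 12 macrophage markers summed to 30.4 CPM in cKO and 10.0 CPM in control members. Once the mixed barcodes were left out, they summed to 11.4 CPM in cKO and 8.51 CPM in control members. Of the 12, 3 were at 0 in cKO and 4 in control members, C1qc and Tyrobp in both. Without the mixed barcodes, Scand1, Hal and Pgp kept 1839, 404 and 18512 UMIs in cKO members.

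**Figure D2:**
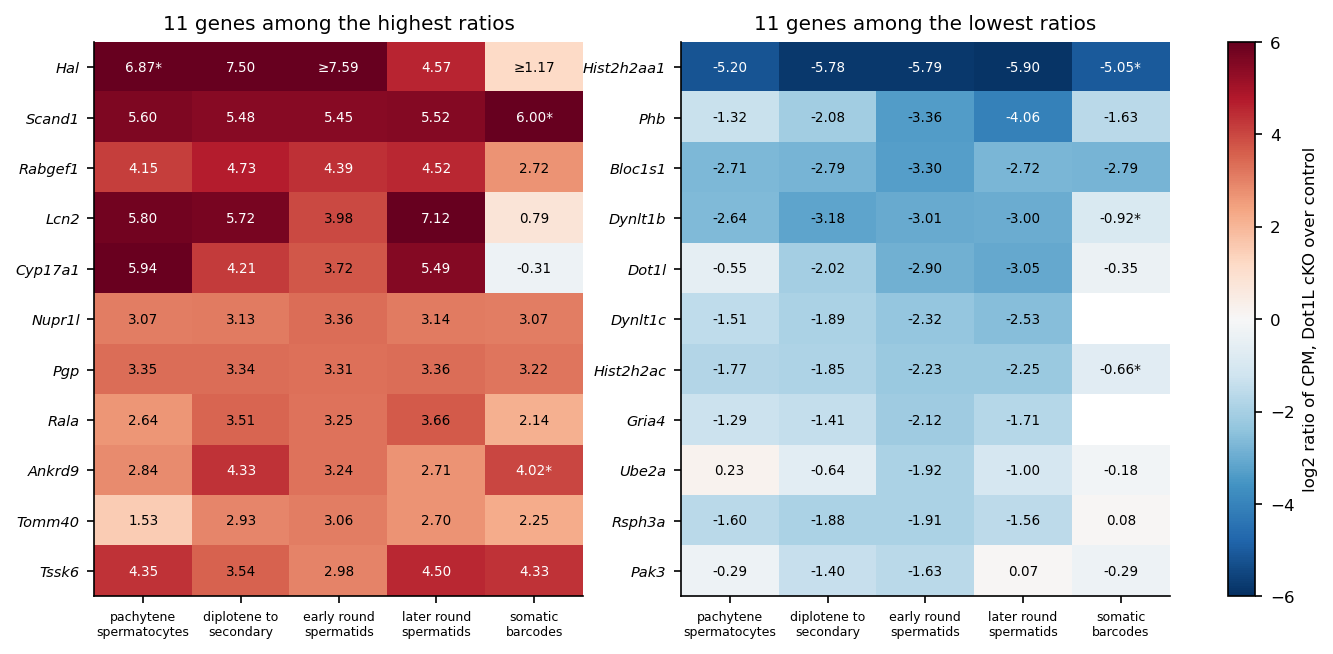
Log2 ratios of CPM, Dot1L cKO over control, of 11 genes among the highest (left) and 11 among the lowest (right) ratios in early round spermatids, in 4 germ cell stages and in somatic barcodes. A sign before a number marks a bound against a floor of 3 UMIs, an asterisk marks a ratio with 1 to 3 UMIs in a library, and blank cells had 3 or fewer UMIs in each library; Scand1, Pgp and Hist2h2aa1 are alike across the columns, while Dot1l, Ube2a and Pak3 are not.

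Of 11 genes described among the lowest ratios, 5 have a 3′ end that is mostly shared with another gene. Hist2h2aa1, a core histone H2A gene, had 1.83 CPM in cKO and 102 CPM in control members, but all 40-base words of its last 400 bases occur in another gene's transcripts, so its count is uncertain. Bloc1s1 (90.0% shared), the dynein light chain genes Dynlt1b (100%) and Dynlt1c (90.6%), and the radial spoke gene Rsph3a (83.9%) are uncertain for the same reason. Hist2h2aa1 was lower by like amounts in every stage and in somatic barcodes, where it had 3 UMIs in the cKO and 21 in the control library, a log2 ratio of −5.05 (−7.44 to −3.31).

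The other 6 had 3′ ends mostly of their own. Phb, which encodes prohibitin of the inner mitochondrial membrane, had 2.75 CPM in cKO and 28.2 CPM in control members, a log2 ratio of −3.36 (−4.07 to −2.72). Gria4, a glutamate receptor subunit gene, had 10.9 CPM in cKO and 47.3 CPM in control members. Hist2h2ac, another H2A gene, had 5.24 CPM in cKO and 24.5 CPM in control members, with 44.0% of its 3′ end shared. A cKO member held 0.0588 Phb UMIs and a cKO somatic barcode 0.127. The remaining genes of these 6 were Dot1l and the X-linked Ube2a and Pak3.

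Ube2a encodes a ubiquitin-conjugating enzyme that can act on histone H2A, and its level was higher in round spermatids than in spermatocytes of both libraries. It had 14.9 CPM in cKO and 56.6 CPM in control members, a log2 ratio of −1.92 (−2.22 to −1.63). In pachytene spermatocytes it was low in both libraries, at 3.39 CPM in the cKO and 2.89 CPM in the control. In later round spermatids it stood at 69.7 CPM in the cKO and 139.9 CPM in the control library. There were 114 Ube2a UMIs over 357 cKO members and 205 over 410 cKO somatic barcodes, so the level in cKO members did not exceed that of somatic barcodes. Pak3, a signalling kinase gene, had 9.43 CPM in cKO and 29.1 CPM in control members, and 24.4 CPM in cKO and 23.1 CPM in control later round spermatids. It averaged 0.202 UMIs per cKO and 0.718 per control member, against 0.198 per cKO and 0.204 per control somatic barcode.

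**Figure D3:**
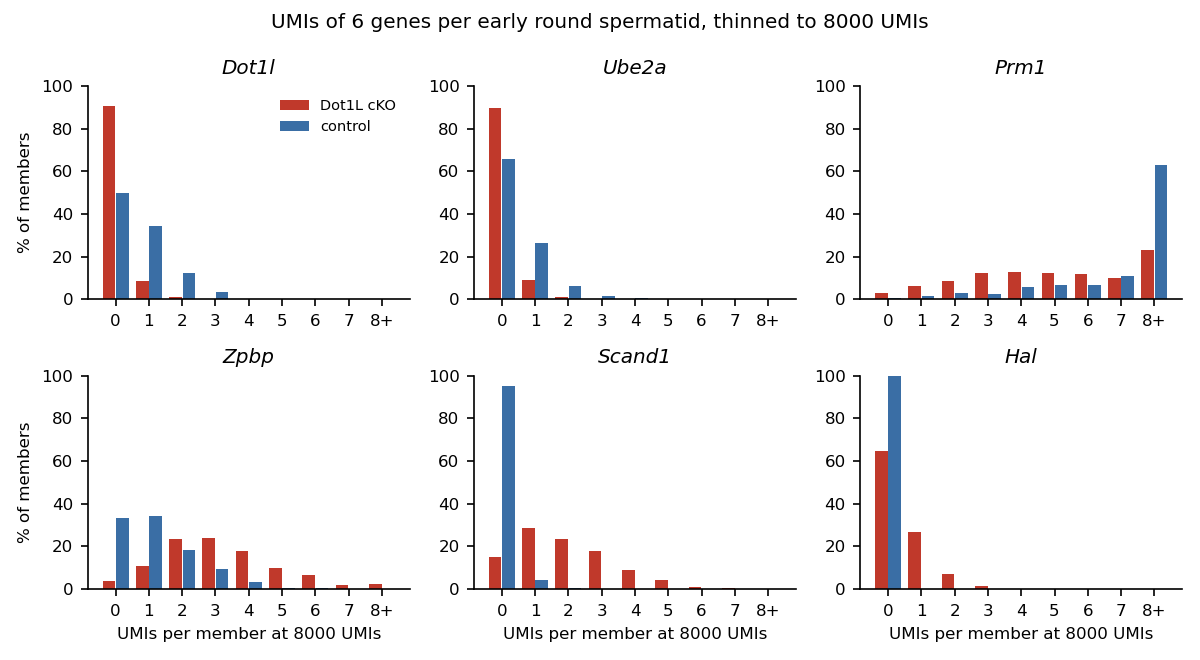
Percent of early round spermatids (vertical axis) by the number of UMIs of 6 genes after each member was thinned to 8000 UMIs, with Dot1L cKO (357 members) left of control (440 members). Scand1 and Zpbp are shifted to more UMIs in cKO members, Dot1l, Ube2a and Prm1 to fewer, and Hal is seen in cKO members alone.

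The sex chromosomes are silenced in pachytene spermatocytes and stay largely repressed in round spermatids, where a subset of X-linked genes is active again. Of 229 measured X-linked genes, 14 (6.11%) were 2-fold or more higher and 27 (11.8%) were 2-fold or more lower in cKO members. Autosomal genes had 5.52% higher and 1.42% lower of 9756. The median log2 ratio of X-linked genes was 0.62 in pachytene spermatocytes (121 genes), 0.41 in diplotene to secondary spermatocytes (167 genes), −0.03 in early round spermatids and 0.05 in later round spermatids (224 genes). The X-linked share of UMIs followed the stages in both libraries. It was 0.123% in cKO and 0.0812% in control pachytene spermatocytes, 0.275% in cKO and 0.203% in control diplotene to secondary spermatocytes, and 0.737% in cKO and 0.712% in control early round spermatids. In later round spermatids it was 1.23% in either library. In somatic barcodes it was 2.72% in the cKO and 3.08% in the control library. Somatic markers were also higher in the cKO spermatocytes: Leydig markers summed to 80.1 CPM in cKO and 18.6 CPM in control pachytene cells, and to 172 CPM in cKO and 29.0 CPM in control diplotene to secondary cells. Without barcodes of 20 or more somatic marker UMIs (22 cKO and 4 control pachytene, 11 cKO and 1 control diplotene to secondary cells) the X-linked medians were 0.51 and 0.35, over the same genes, and −0.08 in early round spermatids.

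**Figure D4:**
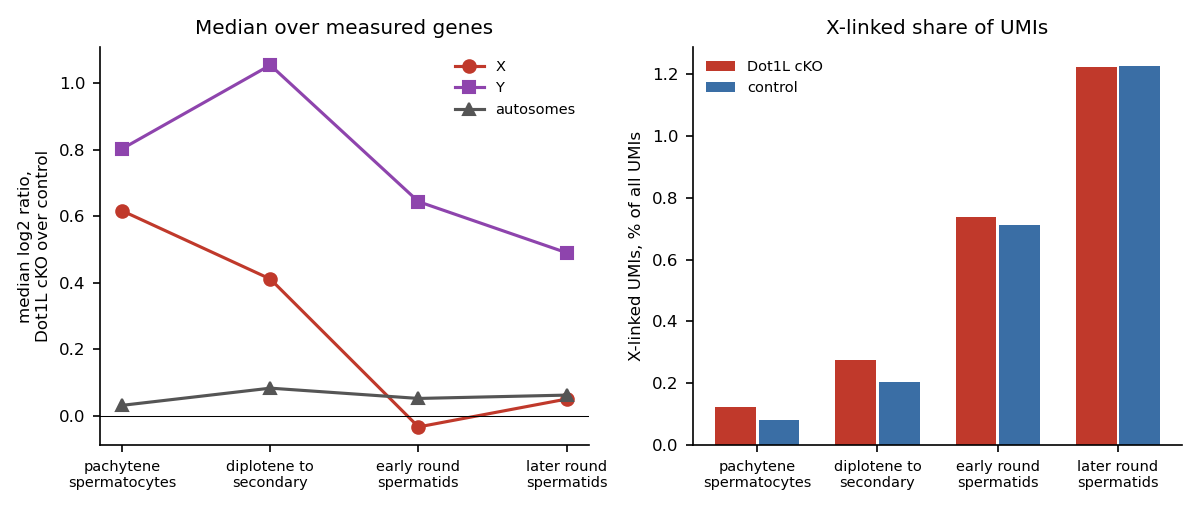
Left, median log2 ratio of CPM, Dot1L cKO over control, of measured X-linked, Y-linked and autosomal genes in 4 germ cell stages. Right, X-linked UMIs as a percent of all UMIs in the Dot1L cKO library and the control library; the X-linked median is 0.62 in pachytene spermatocytes and −0.03 in early round spermatids, where the X-linked shares are 0.737% and 0.712%.

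The X-linked genes named next were chosen after their values were seen. The lowest were Bcorl1, a corepressor gene, at 1.18 CPM in cKO and 9.86 CPM in control members, and the deacetylase gene Hdac8, at 1.96 CPM in cKO and 15.5 CPM in control members. Hdac8 had a log2 ratio of −2.98 in early round spermatids, and of 0.82 in pachytene, −1.39 in diplotene to secondary and −1.09 in later round cells. Syap1 was at 3.54 CPM in cKO and 8.66 CPM in control members, with ratios of −1.29 there and 1.38 in pachytene spermatocytes. Bcorl1, Hdac8 and Syap1 had fewer UMIs per cKO member than per cKO somatic barcode, at 0.0252 against 0.0610 for Bcorl1, 0.0420 against 0.159 for Hdac8 and 0.0756 against 0.239 for Syap1. Acot9, a mitochondrial thioesterase gene, had 12.4 CPM in cKO and 27.2 CPM in control members. On the higher side, Tgif2lx1 and Tgif2lx2, near-identical homeobox genes whose reads may be split between them, had 56.2 and 60.1 CPM in cKO members and 15.3 and 17.1 CPM in control members. Morf4l2, a chromatin protein gene, had 52.9 CPM in cKO and 18.6 CPM in control members.

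On the Y chromosome 9 of 31 measured genes were 2-fold or more higher and 3 were lower in cKO members, where 5.62% of all measured genes were higher and 1.7% lower. All 9 carried predicted Gm symbols. Gm20736, also a predicted symbol, was among the 3 lower, with a log2 ratio of −2.22. Sharing of reads between these predicted genes was not examined, so the 9 may not be separate differences. Zfy1, a zinc finger gene active after meiosis, had 2.88 CPM in cKO and 10.5 CPM in control members, and its copy Zfy2 had 4.06 CPM in cKO and 8.84 CPM in control members. The list of X and Y multicopy genes and other Y-linked genes had 13 measured members, with a median log2 ratio of −0.50. Of these, 2 were lower by 2-fold or more (Zfy1 and Zfy2) and none higher. The X-linked Cypt2 and the Y-linked Usp9y had ratios of −0.93 and −0.86. Sly, a Y-linked repressor of spermatid sex chromosome genes, had 24.8 CPM in cKO and 15.8 CPM in control members, and its X-linked relative Slxl1 had 379 CPM in cKO and 249.7 CPM in control members. Both are multicopy, so reads of near-identical copies cannot be told apart.

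The series names the exchange of histones for protamines as its question, so the chromatin genes come next. Prm1, a protamine, had 588 CPM in cKO and 1105 CPM in control members, a log2 ratio of −0.91 (−0.96 to −0.86). Prm2 had 547 CPM in cKO and 828 CPM in control members, a ratio of −0.60. Transition protein gene Tnp1 had 274 CPM in cKO and 369 CPM in control members, and Tnp2 had 375 CPM in cKO and 449 CPM in control members. All 4 were lower in cKO members by less than 2-fold.

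These 4 levels did not exceed those of somatic barcodes. A somatic barcode, which should not express Prm1, held 31.1 Prm1 UMIs in the cKO and 53.2 in the control library, at median depths of 2921.5 and 2420 UMIs. An early round spermatid held 12.6 Prm1 UMIs in the cKO and 27.3 in the control library. All cKO and control somatic barcodes had a Prm1 UMI. Per somatic barcode Prm2 counted 40.5 UMIs in the cKO and 45.1 in the control, Tnp1 10.8 in the cKO and 14.2 in the control, and Tnp2 16.7 in the cKO and 21.0 in the control. The counts per member were lower for each of them, at 11.7 for Prm2, 5.86 for Tnp1 and 8.01 for Tnp2 in the cKO, and at 20.4, 9.10 and 11.1 in the control. The log2 ratios in somatic barcodes were −1.02 for Prm1, −0.40 for Prm2, −0.64 for Tnp1 and −0.58 for Tnp2. Expression of these genes by early round spermatids could therefore not be told apart from free RNA. How much of the counts in members was free RNA was not tested.

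Some genes of chromatin that are active earlier could be read. Hils1, a spermatid linker histone, had 614 CPM in cKO and 471 CPM in control members. It averaged 13.1 UMIs per cKO and 11.6 per control member, against 2.36 per cKO and 2.16 per control somatic barcode. H1fnt, another, averaged 0.933 UMIs per cKO and 0.752 per control member, below the 1.23 per somatic barcode of either library. Its expression in members could not be told apart from free RNA. Of 10 measured histone variant genes, 1 was 2-fold or more lower and none higher, with a median of 0.09. That gene was Hist1h1t, the testis linker histone of spermatocytes, at 6.94 CPM in cKO and 17.3 CPM in control members. The log2 ratio of Hist1h1t was −1.32, and −0.82 with each member thinned to 8000 UMIs. Its levels in diplotene to secondary spermatocytes were 10.6 CPM in the cKO and 11.8 CPM in the control library. The replacement histones H3f3a and H2afz had 1686 and 1430.3 CPM in cKO members and 1515 and 1378 CPM in control members. Among 16 genes known for histone removal none passed 2-fold, and the median was −0.07. Their largest ratios were 0.77 for Cdyl, a reader of methylated histones, and 0.55 for Chd5, a remodeller needed for the exchange. Brdt, which binds acetylated histones, had 143 CPM in cKO and 151 CPM in control members.

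Of 9 measured genes on the list of DOT1L and its reported partners, 2 were 2-fold or more higher and 2 lower (Dot1l and Bcorl1), where 5.62% of all measured genes were higher and 1.7% lower. Mllt3, the AF9 subunit that recruits DOT1L, had 10.9 CPM in cKO and 4.24 CPM in control members, a log2 ratio of 1.36 (0.82 to 1.91). Mllt3 averaged 0.232 UMIs per cKO and 0.105 per control member, close to the 0.205 per cKO and 0.0971 per control somatic barcode, and 5 cKO members held 38.6% of its UMIs. Bcor, the X-linked relative of Bcorl1, had 11.1 CPM in cKO and 4.79 CPM in control members. Mllt10, whose product AF10 binds DOT1L, had 60.5 CPM in cKO and 75.9 CPM in control members.

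The acrosome genes were close between the libraries, apart from Zpbp and Smap2. Of 27 measured, 2 were 2-fold or more higher and none lower, where 5.62% of all measured genes were higher, and the median was −0.02. Zpbp had 407 CPM in cKO and 165 CPM in control members, a log2 ratio of 1.30 (1.22 to 1.38), and at 8000 UMIs 96.4% of cKO and 66.6% of control members had a Zpbp UMI. Somatic barcodes, which should lack it, had one in 22.2% of cKO and 4.85% of control cases. It was also higher in the cKO library in pachytene, diplotene to secondary and later round cells, with ratios of 0.70, 1.39 and 1.24. Smap2, which acts in vesicle traffic to the forming acrosome, had 46.2 CPM in cKO and 9.49 CPM in control members. Spaca1, an inner acrosomal membrane protein, had 512 CPM in cKO and 409 CPM in control members. Spink2, a protease inhibitor of the acrosome, had 2069 CPM in cKO and 2671 CPM in control members. Izumo1 had 48.9 CPM in cKO and 54.4 CPM in control members, with its whole 3′ end shared with another gene. Acr, the acrosin gene, had 189 CPM in cKO and 172 CPM in control members.

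Regulators of spermatid transcription and RNA storage held no 2-fold difference among the 15 and 19 genes measured, with medians of 0.02 and −0.01. Crem, the activator named above, had 541 CPM in cKO and 532 CPM in control members, and Tbpl1, a TBP-like factor needed for spermatid genes, had 1181 CPM in cKO and 1307 CPM in control members. Hsfy2 came nearest to 2-fold, with 78.1 CPM in cKO and 40.3 CPM in control members, a log2 ratio of 0.96. It passed 2-fold under 3 alternatives, at 1.04 with members thinned to 8000 UMIs, 1.01 without members above the 95th percentile of UMIs and 1.67 with a late share below 0.10. Among storage genes, the germ cell RNA helicase Ddx4, the gene whose promoter drives the Cre, had 239 CPM in cKO and 403 CPM in control members. Papolb, a testis poly(A) polymerase, had 358 CPM in cKO and 205 CPM in control members.

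Flagellar genes leaned lower by small amounts. Of 26 measured genes of the axoneme and its transport, none passed 2-fold and 5 had a ratio above 0, against 5616 of all 10039 measured genes. Their median was −0.15. Most of these genes had 500 or more UMIs, and the median of all genes at that depth was 0.0114. Whether the lean is particular to flagellar genes was not tested. The dynein heavy chain genes Dnah1 and Dnah17 had ratios of −0.42 and −0.33, and Spag16, of the central pair, had 679.7 CPM in cKO and 835 CPM in control members. The list's median was also −0.15 in pachytene spermatocytes, and it was −0.11 in diplotene to secondary and −0.09 in later round cells. CatSper channel genes had a median of −0.15 over 12 genes. Akap4, the main fibrous sheath gene, X-linked, had 60.6 CPM in cKO and 106 CPM in control members. Akap4 averaged 1.30 UMIs per cKO and 2.61 per control member, against 1.08 per cKO and 0.913 per control somatic barcode.

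In the other lists the counts past 2-fold stand beside 7.32% of all measured genes, and nothing is read from them. Of 18 glycolysis genes only Eno1 passed 2-fold, at 55.5 CPM in cKO and 137 CPM in control members, with 87.0% of its 3′ end shared. Among 16 genes of the synaptonemal complex and recombination only Tex12 did, at 17.4 CPM in cKO and 7.37 CPM in control members. Of 6 testis-specific serine kinase genes Tssk6 alone passed 2-fold, a call that free RNA subtraction removed as given above, and the median was 0.17. No gene passed 2-fold among 15 of the outer dense fibres and fibrous sheath (median −0.05), 14 of the manchette and head shaping (median 0.04) and the 7 of the list that holds the transition proteins and protamines (median −0.26). The 18 genes of the meiotic divisions had a median of −0.12 and the 20 of the ubiquitin and proteasome list 0.06, with none past 2-fold in either. Of the p53 and apoptosis list only 3 of 15 genes were measured, none past 2-fold, with a median of 0.23. Of the dissociation stress list 3 of 14 were measured, and Hspb1 was at 16.5 CPM in cKO and 6.73 CPM in control members.

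**Figure D5:**
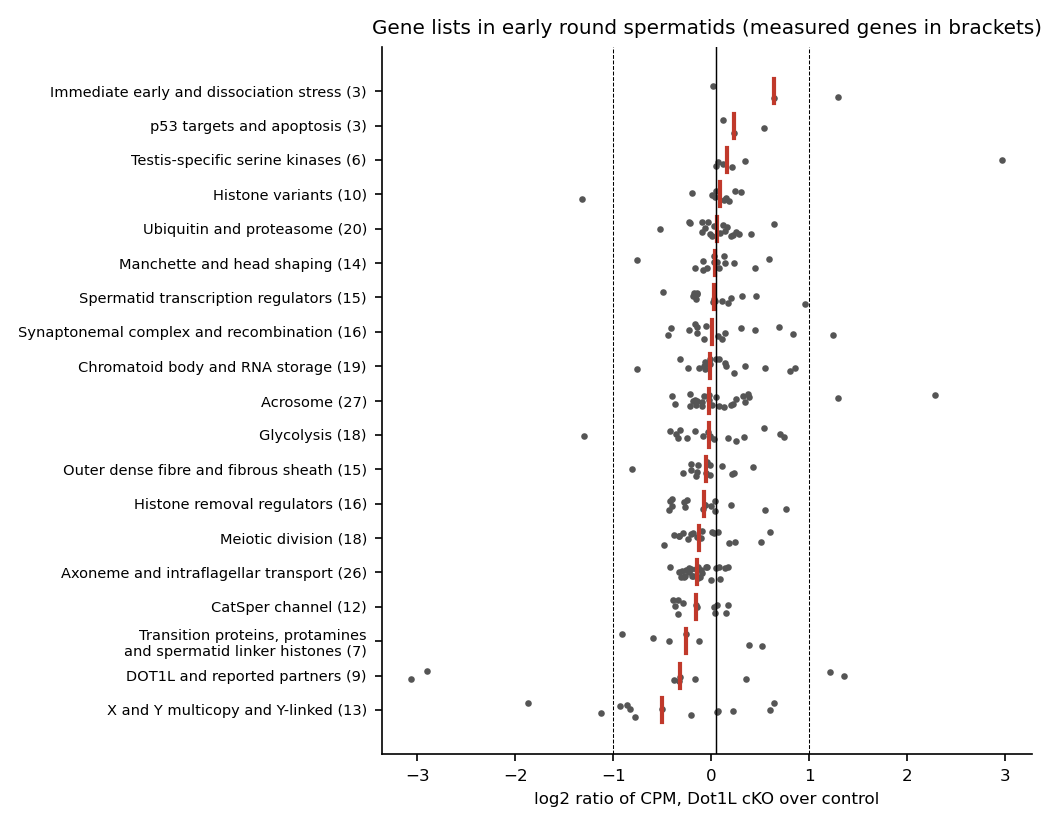
Log2 ratio of CPM, Dot1L cKO over control, of each measured gene (points, spread vertically for sight) of 19 lists in early round spermatids, with the list's median (red), the median of all measured genes at 0.05 (line) and 2-fold (dashed). Most lists centre near 0, and the acrosome list has Zpbp and Smap2 to the right. The list of X and Y multicopy genes and other Y-linked genes has the lowest median, −0.50.

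Some genes peaked at this stage in both libraries. Of 2785 genes with 50 or more CPM in members of each library, 535 were higher in members than in diplotene to secondary spermatocytes and in later round spermatids in both libraries, and 9 were so by 2-fold or more. Plcl1, a phospholipase C-like gene, led with 55.0 CPM in cKO and 57.4 CPM in control members, against 19.2 and 14.8 CPM in the earlier and later cKO cells and 10.5 and 22.7 CPM in the earlier and later control cells. Zbtb20, a zinc finger repressor gene, had 143 CPM in cKO and 144 CPM in control members, with 58.5 and 47.7 CPM in the earlier and later cKO cells and 42.5 and 55.6 CPM in the earlier and later control cells. Zbtb20 averaged 3.05 UMIs per cKO and 3.55 per control member, against 3.13 per cKO somatic barcode and 309 UMIs over the 103 control somatic barcodes. Others by 2-fold included Gmds, Ssxb1, Fhit, Tpte, Fam172a and Pdcd6. The 15 genes with the sharpest peak had a median gene length of 348 kb, against 21.8 kb over those 2785 genes. Of the 15, 9 were longer than 100 kb, against 14.1% of the 2785. Whether intronic reads were counted is not given in the sources used here. Fam172a differed most of the 15, with 85.3 CPM in cKO and 149 CPM in control members, while Dek, a chromatin protein gene, had 105 CPM in cKO and 61.2 CPM in control members.

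Members varied among themselves along the late gene share that bounds the rule. Across bins below 0.10, 0.10 to 0.15, 0.15 to 0.20 and 0.20 to 0.25 of the pooled share, Spaca1 had 324, 446, 597 and 659 CPM in cKO and 274, 367, 463 and 563 CPM in control members. Both libraries thus climbed along the bins. Ube2a had 15.4, 9.53, 15.8 and 19.7 CPM in cKO bins and 27.9, 47.6, 71.8 and 85.5 CPM in control bins, so its level climbed in control members and stayed under 20 CPM in cKO members. Dot1l had 17.8, 14.5, 9.57 and 7.39 CPM in cKO bins and 107, 82.0, 84.2 and 86.3 CPM in control bins. Scand1 had 249.8, 240.4, 235 and 254 CPM in cKO bins and 6.14, 4.56, 7.76 and 3.84 CPM in control bins, with no drift in either. With the 4 bins given the same weight in both libraries, 558 genes were 2-fold or more higher and 169 lower.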

How the data were processed

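The authors deposited 1 matrix of UMI counts for each library, whose file headers name Cell Ranger 7.0.0. Per the submitters' processing notes the build was mm10 and Seurat 4.1.0 was used; no cell annotation was used here. Members, lists and rules were chosen with earlier results of these data known. Counts of members were summed per library and scaled to CPM. Ratios carry exact conditional binomial intervals, shares Clopper-Pearson intervals and median gene counts rank-based intervals over members, all at 95%. With 1 library per genotype nothing was tested. The interval calculation for ratios was run on simulated Poisson counts, which checks its arithmetic only. The simulation held no spread between members. No doublet caller was run. Neighbouring stages were cut from Piwil1, Ccna1, Acrv1 and the late share. Somatic barcodes had 1000 or more UMIs, with 20 or more and 1% or more from macrophage, Leydig and mesenchymal markers. They gave the level of free RNA, which therefore includes their own transcripts. Named genes were, with 20 or more CPM in either library, the 12 highest and 12 lowest ratios, up to 4 per list, the 15 most abundant, the round spermatid markers and the 15 with the sharpest stage peak; predicted, mitochondrial, hemoglobin and the 7 rule genes were passed over for the ratio and peak ranks. The text gives part of them, and some are not reported here. Gene positions and 3′ ends are from GENCODE vM21. Python 3.11.15, SciPy 1.17.1 and pandas 2.3.3 were used.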

Additional observations from a re-analysis of the deposited data

How the results depend on the processing

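Each alternative below was compared with 564 genes higher, 171 lower and a median log2 ratio of 0.05. With every gene of 1 or more UMIs there were 2888 higher and 1007 lower (median 0.126), and with 500 or more UMIs 179 and 44 (median 0.0114). Members with a late share below 0.10 gave 315 and 67 (median 0.0283), from 80 cKO and 125 control cells. After free RNA was subtracted 796 genes were higher and 542 lower (median 0.024). The median was 4.4e-05 with median-of-ratios scaling, 0.0241 without the 50 most abundant genes, 0.0792 with members thinned to 8000 UMIs, 0.0623 without members above the 95th percentile of UMIs, 0.033 with Acrv1 at 6 or more and 0.0403 with 12000 or more UMIs. The log2 ratio of the members' share of deep barcodes was −0.18, against −0.52 with a late share below 0.10 and −0.54 over all barcodes. Opposite ends of the 2 share intervals, set against each other, gave −0.46 to 0.10 for the value of −0.18. That range is wider than a 95% interval of the ratio. The difference in genes per member at 8000 UMIs was 157, and 189.5 with a late share below 0.10. Free RNA subtraction turned Tssk6 to −0.49, and of the other values for single genes under the alternatives 198 moved beyond their counting interval and 1476 did not. The log2 ratio of Ube2a was −0.86 with a late share below 0.10. Free RNA subtraction left no Prm1, Prm2, Tnp1 or Tnp2 value, and members with no late UMI (1 cKO, 2 control) gave none. The late share bins of equal weight and the removal of mixed barcodes were chosen after seeing the data. The cause of these shifts was not tested. No paired analysis was possible because each genotype had 1 library.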
